A study of Mus musculus with 20 samples.

Results

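The subject here is a group of 10 neuropeptide precursor genes, Npy, Sst, Vip, Cck, Penk, Pdyn, Tac1, Tac2, Crh and Adcyap1, in single-nucleus RNA sequencing (snRNA-seq) of the mouse hippocampus. The genes were chosen by symbol, and all 10 were found among the 32285 genes of each of 20 deposited matrices. Their UMIs (unique molecular identifiers, each standing for 1 counted RNA molecule) were summed per mouse over all 160777 nuclei. The same sums were made over the 4093 nuclei with 2 or more UMIs of Gad1 and Gad2 together, the genes of the enzymes that make GABA, and over the 148003 nuclei with none. The 8681 nuclei with 1 such UMI were left out of that contrast. Each library was 1 mouse, so replicates were separate animals.

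The mice were males of 4.5 to 5.5 months, either WT or littermates with the APPSwe and PS1ΔE9 transgenes (APP/PS1), a model of familial Alzheimer's disease in which a prion protein promoter drives both transgenes. Wake mice numbered 6 WT and 3 APP/PS1. Isoflurane mice, at 5% and then 1.5%, numbered 3 WT and 4 APP/PS1. Ketamine mice, given 150 mg/kg ketamine with 12 mg/kg xylazine, numbered 2 WT and 2 APP/PS1, so the effect of ketamine cannot be told apart from that of xylazine. These groups follow the labels of the samples; the series' own design text gives other numbers of wake and isoflurane mice in each genotype, and this conflict could not be settled, so each state, genotype and interaction value below holds for the groups as labelled. Anesthesia lasted 3 h and the mice were killed right after it. The labels give a perfusion with cold PBS for the mice, whereas the study's methods describe rapid decapitation before dissection, and by both the dissected tissue was frozen. The study asked how anesthesia changes hippocampal transcription in each genotype, and for the present genes this means isoflurane or ketamine against wake, APP/PS1 against WT, and whether the response depends on genotype.

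Neuropeptides are cut from larger precursor proteins, packed into dense core vesicles and released mostly at high firing rates, after which they act on G protein-coupled receptors. In the hippocampus many precursors mark classes of GABAergic interneurons. Sst (somatostatin) and Npy (neuropeptide Y) are made by dendrite-targeting and neurogliaform interneurons, Vip (vasoactive intestinal peptide) by interneurons that mostly inhibit other interneurons, and Cck (cholecystokinin) by a class of basket cells and by pyramidal neurons. Penk and Pdyn encode the opioid precursors of the enkephalins and the dynorphins, and Pdyn is known for the dentate granule cells. Tac1 (substance P and neurokinin A) and Tac2 (neurokinin B) encode the tachykinins, Crh encodes corticotropin-releasing hormone, and Adcyap1 encodes PACAP, a relative of Vip.

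Transcription of several of these genes is driven by the cAMP response element, TGACGTCA, the site of the activity-regulated factor CREB, which was defined in the Sst promoter. Promoter windows from RefSeq (GRCm38.p6, 250 bases before to 50 bases after each transcription start) were found for 8 of the 10 genes, all but Penk and Crh. The full element was present in the window of Sst, and it lay in 588 of all 32851 windows (1.79%). The core TGACG, searched on both strands and so also as CGTCA, lay in 6837 windows (20.8%), those with the full element included. Besides Sst, it was present in the windows of Vip, Cck, Tac1 and Adcyap1, and the windows of Npy, Pdyn and Tac2 held neither. These stretches are shown because the counts of the same 5 genes are compared between states further on, beside activity-regulated genes. Capitals mark the element or core, and each stretch reads 5′ to 3′ on the strand of its gene.
Sst: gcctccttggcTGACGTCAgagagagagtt
Vip: gatcactactgTGACGtctttcgggga
Cck: ctgctggactgCGTCAgcactgggtaa
Tac1: ccctaaaattgCGTCAtttcgaacaca
Adcyap1: gactaggatgcTGACGtcttttactga
The Sst stretch is chr16:23890874-23890903 (minus strand), with the element at positions -48 to -41 from the RefSeq start, inside a non-coding exon annotated for a longer Sst transcript. The Vip stretch is chr10:5639128-5639154 (plus strand), upstream of the annotated gene, with the core at -79 to -75. The Cck stretch is chr9:121495726-121495752 (minus strand), with the core at -47 to -43. The Tac1 stretch is chr6:7554853-7554879 (plus strand), with the first of its 2 cores at -197 to -193 (the other is not printed), and the Adcyap1 stretch is chr17:93198915-93198941 (plus strand), with the core at -91 to -87. A match describes letters only and says nothing of binding in these nuclei.

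In the files' annotation (GRCm38), Npy (ENSMUSG00000029819) lies on chromosome 6 from 49822710 to 49829507, Sst (ENSMUSG00000004366) on chromosome 16 from 23889573 to 23890958, and Vip (ENSMUSG00000019772) on chromosome 10 from 5639218 to 5647617. Cck (ENSMUSG00000032532) lies on chromosome 9 from 121489824 to 121495694 and Penk (ENSMUSG00000045573) on chromosome 4 from 4133531 to 4138819. Pdyn (ENSMUSG00000027400) lies on chromosome 2 from 129686565 to 129699844, Tac1 (ENSMUSG00000061762) on chromosome 6 from 7554879 to 7565834, and Tac2 (ENSMUSG00000025400) on chromosome 10 from 127724478 to 127731768. Crh (ENSMUSG00000049796) lies on chromosome 3 from 19693401 to 19695396 and Adcyap1 (ENSMUSG00000024256) on chromosome 17 from 93199017 to 93206537.

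Total UMIs per mouse ran from 9243992 to 25394891, over 4743 to 10877 nuclei. A doublet score marked 10844 nuclei (6.74%), which were left out of classes but kept in the sums per mouse. Any pair of libraries shared 5 to 35 cell barcodes, at most 0.407% of those in a library. Mice 1 to 4, which hold 1 mouse of each wake and isoflurane group and no ketamine mouse, stood apart from the other 16: mitochondrial genes took 0.939% to 1.78% of their UMIs against 0.0353% to 0.336%. Prnp, the endogenous gene of the promoter used for the transgenes, spanned 63.6 to 433 CPM (counts per 1000000 UMIs) in mice labelled APP/PS1 and 42.2 to 196 CPM in mice labelled WT. APP/PS1 isoflurane mouse 11 (63.6 CPM) lay within the range of WT mice, as did APP/PS1 mice 17, 20, 25 and 26, and WT wake mouse 14 was the highest WT mouse, at 196 CPM. App spanned 423 to 623 CPM in mice labelled APP/PS1 and 409 to 543 CPM in mice labelled WT. Mouse 11 was again the lowest APP/PS1 mouse and mouse 14 again the highest WT mouse. The numbers of the design text would be met if 1 wake mouse moved from WT to APP/PS1 and 1 isoflurane mouse from APP/PS1 to WT. Whether mice 14 and 11 are those mice was not tested. The ranges of both genes overlap and no mouse was moved to another group, so genotypes are given as labelled. In sums over nuclei, fewer cells of a type and less RNA per cell cannot be told apart.

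Over the 20 mice the sums held 36046 UMIs of Cck, 12296 of Sst, 4996 of Vip, 4105 of Npy, 1933 of Tac1 and 1468 of Penk. The others were sparser, with 652 UMIs of Tac2, 534 of Pdyn, 504 of Adcyap1 and 233 of Crh. Npy, Sst, Cck, Tac2 and Crh were higher in every one of mice 1 to 4 than in any of the other 16 mice. Of all 20540 genes tested, 8.73% lay above in this way and 1.3% below, against 5 and 0 of the 10 precursors. The gap was wide: the median of mice 1 to 4 was 14.2 times that of the other 16 mice for Sst, 11.3 times for Npy, 8.93 times for Tac2, 7.10 times for Crh and 5.51 times for Cck. For Tac1, Vip, Adcyap1 and Penk the ratio was 4.90, 3.88, 3.26 and 2.46, with overlapping ranges, and for Pdyn it was 1.11.

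Npy stood at 38.5 CPM in WT wake mouse 1, 38.9 in APP/PS1 wake mouse 2, 36.9 in WT isoflurane mouse 3 and 36.7 in APP/PS1 isoflurane mouse 4. The other 5 WT wake mice ran from 2.13 to 8.31 CPM, the other APP/PS1 wake mice were at 6.69 and 5.25, the other WT isoflurane mice at 4.32 and 2.90, and the other APP/PS1 isoflurane mice ran from 2.34 to 4.94. Ketamine mice were at 3.14 and 2.89 CPM (WT) and 2.62 and 3.23 CPM (APP/PS1). Npy therefore separated mice 1 to 4 from the rest but not the states or genotypes from each other. Sst, in the same order of groups, was at 126, 109, 131 and 109.8 CPM in mice 1 to 4. The other wake mice ran from 3.09 to 23 CPM and the other isoflurane mice from 6.99 to 16.8, while ketamine mice were at 3.57 and 13.7 (WT) and 7.37 and 7.90 (APP/PS1). Cck was at 239, 292, 302 and 236 CPM in mice 1 to 4, 23.3 to 113 in the other wake mice, 40.2 to 73.8 in the other isoflurane mice and 24.9 to 57.7 in ketamine mice. Vip, with mice 1 to 4 at 24.3 to 42.1 CPM, reached 25.4 CPM in APP/PS1 isoflurane mouse 15 and fell as low as 1.42 in mouse 11 of the same group. Tac2 was at 4.32 to 9.10 CPM in mice 1 to 4 and at 0.206 to 1.08 in the other 16, on as few as 3 UMIs, and Crh at 0.843 to 2.80 and 0.0740 to 0.578, on as few as 1. Pdyn lay between 0.481 and 3.58 CPM over all mice, with mice 1 to 4 inside that range. Once mice 1 to 4 were set aside, the ranges of the 3 states overlapped for Npy, Sst and Cck alike.

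**Figure D1:**
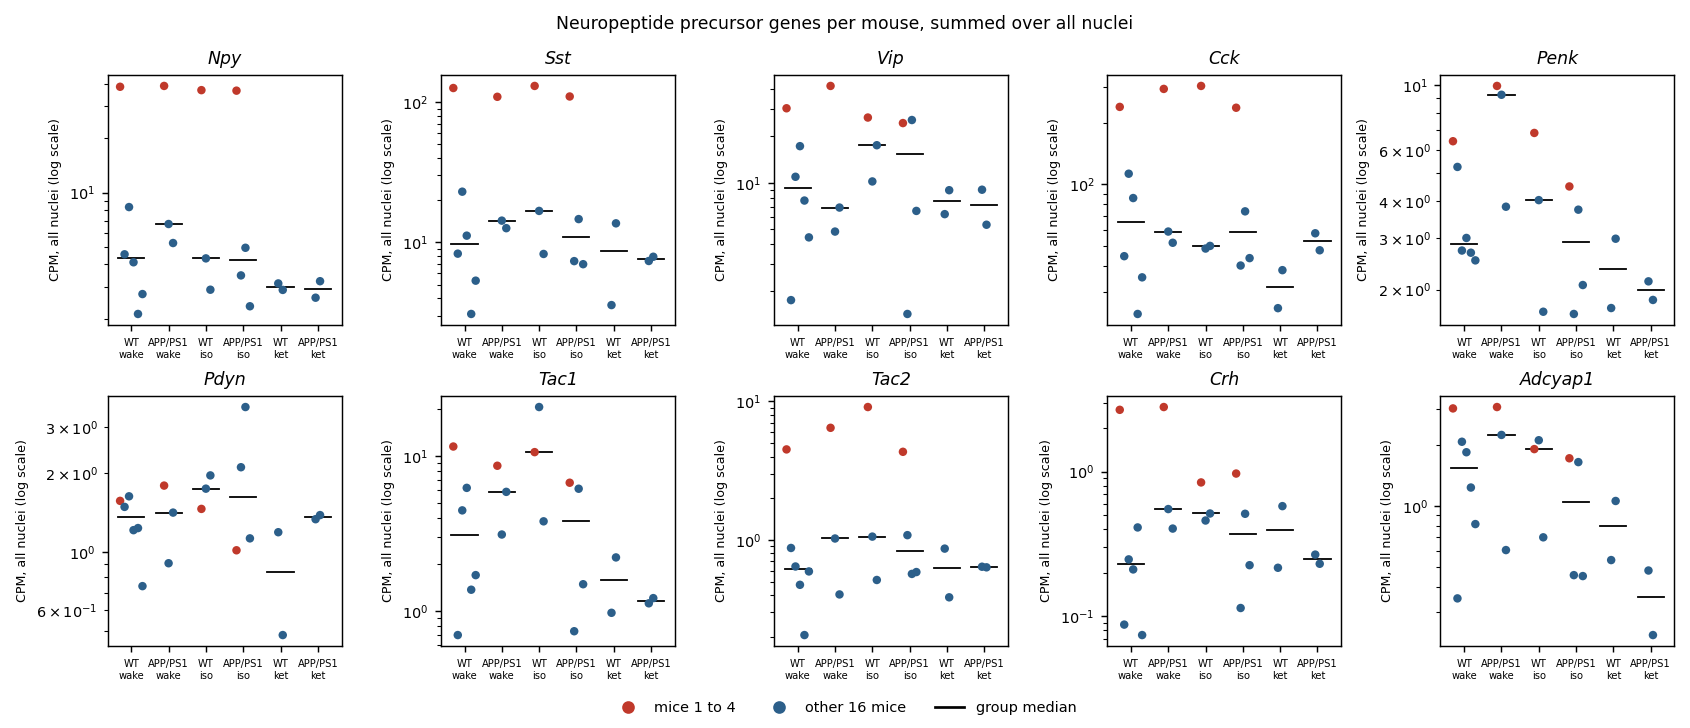
CPM of each precursor in the sum of all nuclei of each mouse, on log axes, grouped by state and genotype; each point is 1 mouse, with mice 1 to 4 in red and the other 16 in blue, and bars are group medians. For Npy, Sst, Cck, Tac2 and Crh the 4 red points lie above all blue ones, whereas Pdyn shows no such gap.

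The 5 genes were not alone among peptide genes. A list of other peptide precursors also holds Crhbp, the gene of a protein that binds Crh, and the growth factor gene Igf1. Of 14 genes of that list tested, 5 (Cort, Crhbp, Cartpt, Pnoc and Grp) lay above in mice 1 to 4. The same held for 3 of 14 genes of peptide processing and dense core vesicles (Chgb, Vgf and Pcsk1n) and 1 of 19 receptors (Sstr1). Of all 20540 genes tested, 8.73% lay above, so the receptors did not exceed the share of all genes. None of 16 activity-regulated genes and none of the markers of striatum, thalamus or cortex did so. Gad1 did, at 40.1 to 56.6 CPM in mice 1 to 4 against 26.0 to 36.0 in the other 16, whereas Gad2 overlapped (29.9 to 38.1 against 16.8 to 36.0). The part of Gad1-expressing nuclei and of the mitochondrial share, which is also higher in mice 1 to 4, was not tested.

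Nuclei were clustered and classes were named from marker genes, so each class is called "like" its type, and levels below are CPM over the nuclei of a class. Clusters that could not be named are called by their leading genes. Sst and Vip were not among the markers that named the Sst-like and Vip-like classes. Their levels there are given as descriptions. In the 16 mice other than 1 to 4, Sst was at 314 CPM in the 935 Sst-like nuclei, with mice from 55.6 to 656 CPM and a median of 270. A UMI of Sst was seen in 43.2% of Sst-like nuclei (median depth 2317 UMIs) against 0.784% of the 11994 oligodendrocyte-like nuclei (median depth 714), a class that should lack it. After thinning to 1000 UMIs the shares were 24.2% and 0.652%. Vip was at 1040 CPM in the 675 Vip-like nuclei, with mice from 64.8 to 2828 CPM and a median of 831, and at 116 CPM in Cck-like nuclei. A UMI of Vip was found in 45.5% of Vip-like nuclei (median depth 1558) and in 0.359% of oligodendrocyte-like nuclei. The levels varied widely between mice even in these classes. The Sst-like class held 27.0% of the Sst UMIs of the 16 mice. All GABAergic-like clusters together, here with marked doublets included, held 46.6%. For Vip the Vip-like class held 49.1% and all GABAergic-like clusters, again with marked doublets, 70.5%. A large part of both was thus counted in other nuclei.

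Npy spread over several interneuron classes. It was at 41.4 CPM in Sst-like nuclei (mice from 0 to 89.0, median 36.9), 32.3 in Cck-like, 32.1 in Lamp5-like (0 to 77.3, median 33.1), 19.4 in Pvalb-like and 4.03 in Vip-like nuclei. The unnamed GABAergic subclusters, with 1945 nuclei, were at 27.35 CPM on 221 Npy UMIs, against 108 UMIs in Sst-like nuclei. The mouse ranges of the Sst-like and Lamp5-like classes overlap almost wholly, so no order between them holds. A UMI of Npy was seen in 9.09% of Sst-like, 6.45% of Lamp5-like and 0.425% of oligodendrocyte-like nuclei. The last are shallower, and the shares were not thinned to a common depth.

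Among classes of 200 or more nuclei, Cck was highest in an unnamed cluster led by Tpm2 and Fn1, at 569 CPM. That cluster held 845 nuclei of the 16 mice, 770 of them from mouse 25. Cck was at 271 CPM in the 598 Cck-like nuclei (mice from 71.3 to 524, median 267) and was also found in glutamatergic classes. It stood at 123 CPM in mossy-like nuclei, 103 in a cluster led by Tshz2 and Pdzrn3, 82.0 in the 14773 CA1-like nuclei (mice from 42.5 to 154, median 69.2), 54.8 in CA3-like and 36.0 in granule-like nuclei. In oligodendrocyte-like nuclei it was at 44.5 CPM, so the CA3-like and granule-like levels are near or below the level of that class. The oligodendrocyte-like nuclei are shallower, and whether their level is a background for other classes was not tested. A UMI of Cck was seen in 40.8% of Cck-like, 19.5% of CA1-like and 3.62% of oligodendrocyte-like nuclei. These shares were not thinned to a common depth, and the oligodendrocyte-like nuclei were the shallowest of the classes named. Nuclei without a Gad1 or Gad2 UMI held 88.9% of Cck UMIs over the 20 mice and were 92.1% of all nuclei.

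The opioid precursors had their higher levels in different classes, though both were also counted in granule-like nuclei. Pdyn was at 4.48 CPM in the 34355 granule-like nuclei (mice from 0.752 to 9.04, median 4.39), 0.239 in CA1-like, 0.159 in CA3-like and 0.499 in oligodendrocyte-like nuclei. A small astrocyte-like cluster of 678 nuclei led by Myoc and Aqp4 was higher, at 13.5 CPM, on 11 UMIs. Granule-like nuclei were 25.9% of the nuclei and held 69.0% of Pdyn UMIs, and in mice 1 to 4 the granule-like level was similar, at 3.58 CPM. Most of the Pdyn counted was thus in granule-like nuclei, and its level there hardly differed between the sets of mice. Penk was at 45.9 CPM in Vip-like nuclei (mice from 0 to 146, median 31.6). A UMI was seen in 6.37% of them against 0.175% of the shallower oligodendrocyte-like nuclei, without thinning to a common depth. All GABAergic-like clusters together, marked doublets included, held 11.5% of the 940 Penk UMIs of the 16 mice, so most were counted elsewhere. Penk was at 19.8 CPM in the 4101 fibroblast-like nuclei, with a median over mice of 0 and a highest mouse of 110. It was at 5.53 in CA1-like nuclei (1.31 to 12.5, median 5.01) and at 2.65 in granule-like nuclei, close to the 2.10 of oligodendrocyte-like nuclei.

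Tac1 was at 110 CPM in the 744 Pvalb-like nuclei (mice from 11.1 to 439, median 80.6), where 16.8% had a UMI (median depth 2408 UMIs), against 0.334% of oligodendrocyte-like nuclei (714 UMIs). The next level, 36.8 CPM, was that of a cluster of 3103 nuclei led by Zfhx3, Lef1, Foxp2 and Slc17a6, a set with the vesicular glutamate transporter of subcortical neurons. This cluster held more Tac1 UMIs than Pvalb-like nuclei (316 against 232), 26.1% of those of the 16 mice. Mouse 16 alone gave 1646 nuclei of that cluster, 17.7% of its own nuclei, and had the highest Tac1 sum of all mice, 20.6 CPM. Lef1 and Slc17a6 are also among the thalamus markers, and the sum of those markers was highest in mouse 16, at 1400 CPM (812 in the lowest mouse). Whether the cluster lies outside the hippocampus was not tested. Tac2 was at 27.1 CPM in Cck-like (47 UMIs) and 25.8 in Vip-like nuclei (32 UMIs), against 0.200 in oligodendrocyte-like nuclei. Crh was at 15.3 CPM in Vip-like nuclei, on 19 of its 93 UMIs in these mice. Adcyap1 was at 22 CPM in mossy-like nuclei (40 UMIs; 8.64% of nuclei with a UMI at a median depth of 4077.5 UMIs, against 0.050% of oligodendrocyte-like nuclei), while the Tshz2 cluster, at 6.72 CPM, held 29.4% of its UMIs. Tac2, Crh and Adcyap1 thus rest on few molecules each, and their order of classes is only a description.

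**Figure D2:**
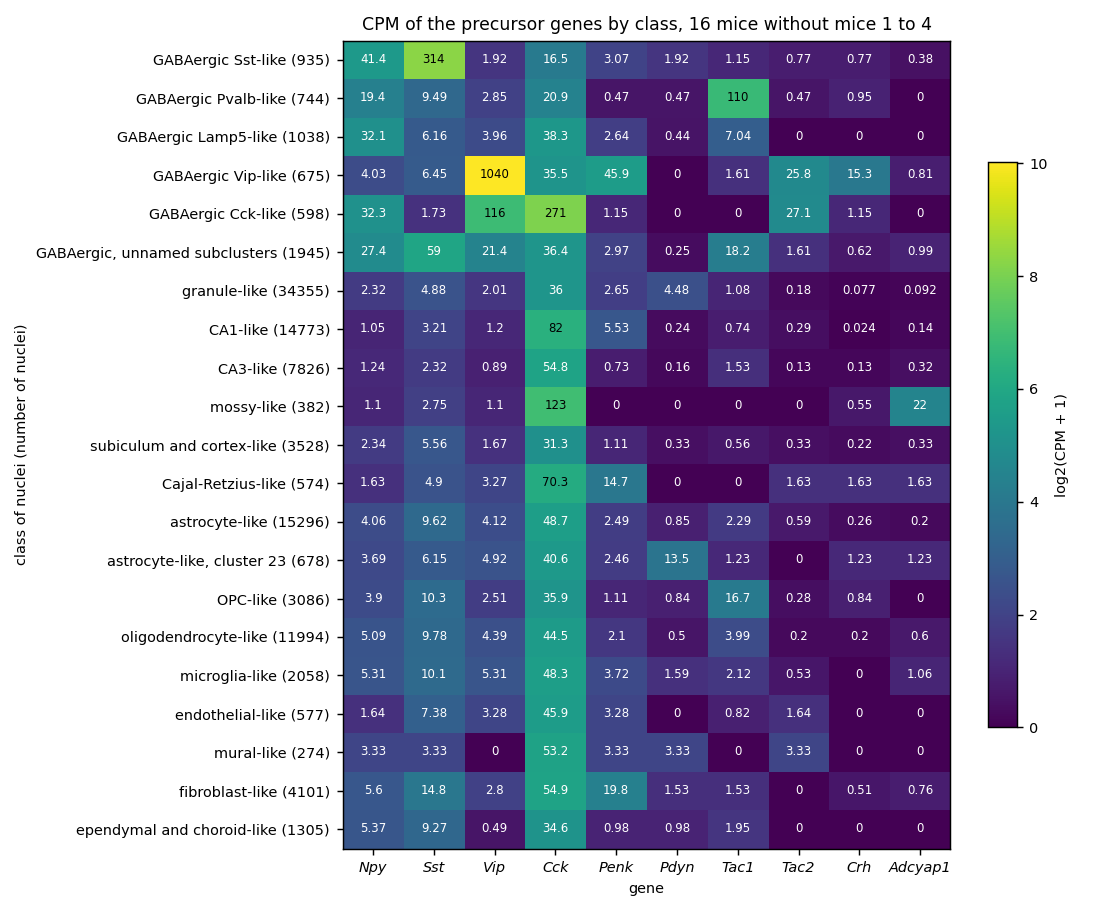
CPM of the 10 precursors in each named class of nuclei and in the unnamed GABAergic subclusters, printed in each cell and colored by log2(CPM + 1). Values are for the 16 mice other than 1 to 4, with the number of nuclei beside each class. Other unnamed clusters are not drawn. Of the classes drawn, Sst, Vip, Cck and Tac1 are highest in an interneuron class and Adcyap1 in mossy-like nuclei. Pdyn stands out in granule-like nuclei among the large neuronal classes. The unnamed cluster led by Tpm2 and Fn1, which is not drawn, had 569 CPM of Cck.

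In mice 1 to 4 several of these classes had higher levels of the same peptides. Sst was at 1625 CPM in Sst-like, Vip at 1697 in Vip-like, Cck at 749 in Cck-like and Npy at 207 in Sst-like and 205 in Lamp5-like nuclei. Tac1 was at 147 CPM in Pvalb-like and Adcyap1 at 42.8 in mossy-like nuclei. Among classes of 200 or more nuclei of these mice, however, Cck was highest in microglia-like nuclei (643 CPM). Oligodendrocyte-like nuclei came next, and no glutamatergic class was among the first 5. Oligodendrocyte-like nuclei were also high, at 203 CPM of Sst against 9.78 in the other 16 mice, 60.6 against 5.09 of Npy, 41.0 against 4.39 of Vip and 545 against 44.5 of Cck. The ratio of Sst to Npy UMIs was taken class by class. Over 16 classes outside the GABAergic ones it had a median of 3.09 in mice 1 to 4, with a range of 1.52 to 4.30. In GABAergic classes of the same mice it was 7.85 in Sst-like, 1.37 in Pvalb-like, 0.53 in Cck-like and 0.315 in Lamp5-like nuclei, and 2.45 in the unnamed GABAergic subclusters. In the other 16 mice the median Sst to Npy ratio over 15 classes was 2.38 (range 1.73 to 8.95), with 7.58 in Sst-like and 0.192 in Lamp5-like nuclei. In mice 1 to 4, 4 of the 5 GABAergic classes with enough Npy UMIs thus lay outside the range of the other classes for Sst to Npy, on both sides of it, and the unnamed subclusters lay inside. In the other 16 mice the Sst-like ratio and that of the unnamed subclusters (2.16) lay inside the range of the other classes. Pvalb-like (0.488), Lamp5-like and Cck-like (0.0536) nuclei lay below it. The ratio of Cck to Npy UMIs in classes outside the GABAergic ones of mice 1 to 4 spanned 0.726 to 16.8 and that of Vip to Npy 0.0283 to 8.92.

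**Figure D3:**
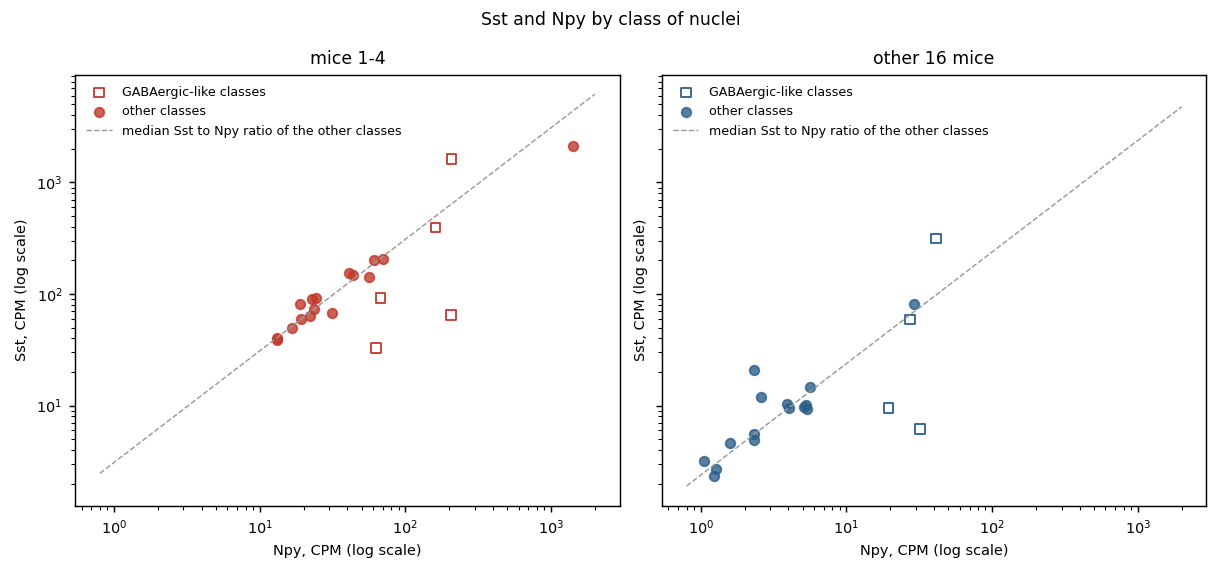
CPM of Sst against CPM of Npy in each class of nuclei, on log axes, for mice 1 to 4 and for the other 16 mice; the dashed line is the median ratio of the classes outside the GABAergic ones. Most of those classes lie near the line in mice 1 to 4, with ratios from 1.52 to 4.30, while Sst-like nuclei lie above it at 7.85 and Lamp5-like nuclei below it at 0.315.

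Nuclei with 5 or more UMIs of a precursor show how far a gene was concentrated. In the 16 mice, 153 such nuclei held 54.0% of all Vip UMIs, and 92 of them were Vip-like. For Sst 50 nuclei held 12.5% of the UMIs (27 of them Sst-like), and for Tac1 26 nuclei held 17.2% (13 in the Zfhx3 cluster and 7 Pvalb-like). Npy had 5 such nuclei with 2.33%, Cck 57 with 2.29% and Penk 8 with 5.53%, of which 4 were fibroblast-like. Pdyn, Tac2, Crh and Adcyap1 had none, with at most 2, 4, 3 and 4 UMIs in a nucleus; the 188 UMIs of Tac2, for example, lay in 160 nuclei.

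Among GABAergic-like nuclei, some precursors were counted together in the same nuclei. With 2 or more UMIs of each gene required, 78 of 159 Npy nuclei of mice 1 to 4 also had Sst (49.1%, exact 95% interval 41.1% to 57.1%), against 24.6% of all 1453 GABAergic-like nuclei, and 1 of the 159 had Vip. In the other 16 mice 27 of 84 Npy nuclei had Sst (32.1%, exact interval 22.4% to 43.2%), against 4.67% of all. Npy thus went with Sst and hardly with Vip. In mice 1 to 4, 15 of 23 Penk nuclei had Vip (65.2%, against 7.50% of all), 33 of 109 Vip nuclei had Cck (30.3%, against 19.8% of all), 14 of 27 Tac2 nuclei had Vip and 14 had Cck, and 6 of 14 Crh nuclei had Vip. The other 16 mice gave lower shares for Penk with Vip and Vip with Cck: 3 of 12 Penk nuclei had Vip (25.0%, against 4.53% of all) and 16 of 269 Vip nuclei had Cck (5.95%, against 2.70% of all), while 7 of 15 Tac2 nuclei had Vip and 6 had Cck. These intervals cover counting error only and nuclei of 1 mouse share their source. A UMI of Cck was seen in 48.2% of all nuclei of mice 1 to 4 and 9.73% in the other 16, and one of Sst in 20.2% and 1.66%. The need for 2 UMIs is thus more easily met in mice 1 to 4. Of Sst nuclei, for example, 50 of 357 had Cck there (14.0%, against 19.8% of all), and 0 of 277 did in the other 16 mice.

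Genes with the most similar pattern were ranked by Pearson correlation of log2(CPM + 1) over 65 clusters and 20111 genes, as a description. Sst was closest to Crhbp, which encodes a protein that binds Crh (0.81), and to Cort, the gene of a somatostatin relative (0.70), and Npy was closest to Sst (0.64). Vip was near Cbln2 (0.62), Tac2 (0.61) and Crh (0.57), and Tac2 was near Htr3a, the serotonin receptor that marks Vip and Cck interneurons (0.67). For Cck, Penk, Pdyn, Tac1 and Adcyap1 the highest values were 0.65, 0.57, 0.53, 0.68 and 0.56, with genes of no peptide function. Over the 20 mice, the correlation was 0.97 for Npy and Sst and 0.96 for Sst and Cck, and over the 16 mice without mice 1 to 4 it was 0.78 and 0.81.

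Nuclei with 2 or more Gad UMIs were 2.55% of all nuclei (83 to 322 per mouse) and had more UMIs each, with a median over mice of 3209.75 against 1484.75 in nuclei with none. The rule is strict: 2783 of 8043 nuclei in GABAergic-like clusters, here with marked doublets included, had no Gad UMI (34.6%). Npy was at 1.98 to 54.4 CPM in Gad-positive nuclei of the 16 mice (median 19.9) and at 0.974 to 5.42 in Gad-negative nuclei (median 2.45). In mice 1 to 4 it was at 131 to 196 and 24.3 to 27.7 CPM. It was higher in Gad-positive nuclei in 19 of 20 mice, with mouse 11 as the exception. Sst was at 7.94 to 149 against 1.35 to 15.6 CPM in the 16 mice and at 289 to 563 against 72.0 to 93.5 in mice 1 to 4, and Vip at 5.95 to 138 against 1.23 to 16.8 and at 70.0 to 118 against 18.8 to 21.4. Sst, Vip and Tac1 were higher in Gad-positive nuclei in 20 of 20 mice, Tac2 in 16, Penk in 13 and Cck in 5.

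With the mouse as a block, 56.1% of 15185 genes differed between Gad-positive and Gad-negative nuclei by the quasi-likelihood test of edgeR at an adjusted p of 0.05, 26.2% higher and 30% lower. Of the 7 precursors with enough counts, 6 were higher and 1 lower. Npy was higher by 2.95 on the log2 scale (SE 0.16, adjusted p = 1.69e-16), Tac1 by 2.88 (SE 0.21), Vip by 2.59 (SE 0.15), Sst by 2.45 (SE 0.18), Tac2 by 2.05 (SE 0.35, adjusted p = 7.23e-06) and Penk by 0.77 (SE 0.25, adjusted p = 0.00962, edgeR). Cck fell by 0.31 (SE 0.086, adjusted p = 0.00239, edgeR). Penk lost the call without mice 1 to 4 (0.43, adjusted p = 0.301), without mouse 2 (0.60, adjusted p = 0.053), in DESeq2 (0.62, adjusted p = 0.068) and with 4 or more Gad UMIs required (0.39, adjusted p = 0.368). Pdyn, Crh and Adcyap1 had too few counts for the test: Pdyn had no UMI in the Gad-positive nuclei of 13 of 20 mice, Adcyap1 in 12 and Crh in 7.

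**Figure D4:**
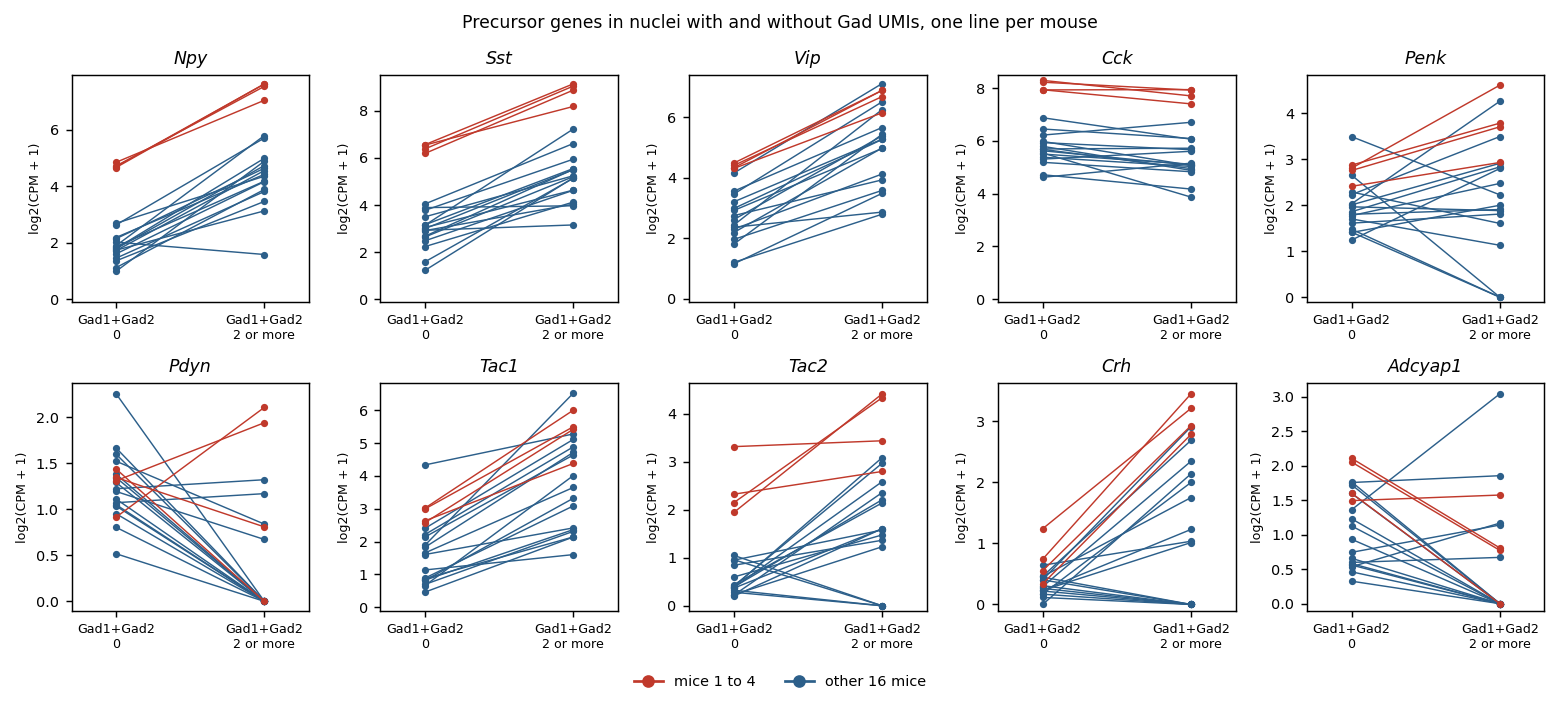
Level of each precursor, as log2(CPM + 1), in nuclei with no Gad UMI (left) and with 2 or more (right); each line joins the 2 values of 1 mouse, red for mice 1 to 4 and blue for the other 16. The lines rise toward Gad-positive nuclei for Sst, Vip and Tac1 in all mice and for Npy in 19 of 20, and fall for Cck in 15.

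Other genes of the pathway went both ways in each role, where 26.2% of all genes were higher and 30% lower. Of 7 genes tested from the list of other precursors, Pnoc (4.10), Igf1 (4.05) and Crhbp (3.94) were higher in Gad-positive nuclei on the log2 scale. Nts (-1.11) and Grp (-0.93) were lower. Of 12 receptors, 4 were higher, among them Tacr1, the substance P receptor (3.27), Oprd1, the delta opioid receptor (2.37), and Oprm1, the mu opioid receptor (0.63), and 4 lower, Vipr1 (-1.49), Npy2r (-0.91), Crhr1 (-0.86) and Npy5r (-0.53). Of 14 processing genes 9 were higher, including Pam, which amidates peptides (1.24), and 4 lower, including the convertase Pcsk2 (-0.79) and the carboxypeptidase Cpe (-0.77).

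Isoflurane was compared with wake over 7 and 9 mice, with 6 group means fitted to all 20 mice and both genotypes weighted equally. None of the 10 precursors passed edgeR's quasi-likelihood test at an adjusted p of 0.05, where 6.27% of 20540 genes did (4.01% higher and 2.26% lower). At an unadjusted p of 0.05, 1 of 10 (Penk) passed, against 20.1% of all genes, and DESeq2 called none. The median log2 difference of the precursors was -0.0034 and that of all genes -0.0028. Differences were 0.10 (SE 0.82) for Sst, -0.11 (SE 0.73) for Npy, 0.05 (SE 0.57) for Vip and -0.05 (SE 0.54) for Cck. The 95% interval for Npy ran from -1.63 to 1.42. Pdyn differed by 0.37 (SE 0.29), Tac1 by 0.31 (SE 0.53), Tac2 by 0.32 (SE 0.70), Crh by -0.83 (SE 0.63) and Adcyap1 by -0.54 (SE 0.42). With mice 1 to 4 as a block the SEs of Npy, Sst and Cck were smaller. Npy then differed by -0.47 (SE 0.24), Sst by -0.14 (SE 0.34), with its direction turned, and Cck by -0.23 (SE 0.26), and none of the 10 was called.

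Penk was the gene nearest to a call. In wake mice it was at 6.42, 5.25, 2.72, 3.00, 2.67 and 2.52 CPM (WT) and at 9.92, 9.25 and 3.84 (APP/PS1). In isoflurane mice it was at 6.86, 4.04 and 1.68 CPM (WT) and at 4.50, 1.65, 3.75 and 2.07 (APP/PS1), and in ketamine mice at 1.73 and 2.98 (WT) and 2.13 and 1.84 (APP/PS1). The highest values are those of APP/PS1 wake mice 2 and 10, and the isoflurane range overlaps the wake range. Isoflurane differed from wake by -0.72 on the log2 scale (SE 0.31, adjusted p = 0.197, edgeR). The difference was -1.42 in mice labelled APP/PS1 (SE 0.45, adjusted p = 0.15, edgeR) and -0.02 in WT mice. The interaction itself was -1.41 (SE 0.61, adjusted p = 0.869, edgeR), so a dependence on genotype was not established.

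Of 16 activity-regulated genes 8 were lower under isoflurane, where 2.26% of all genes were, with Arc at -2.27, Npas4 at -1.92, Egr4 at -1.44 and Egr1 at -1.36 on the log2 scale, and 5 of them were called without mice 1 to 4, where 75 of 20143 genes were lower. Of the peptide pathway, the convertase Pcsk1 was lower by -1.14 (adjusted p = 0.0103), and of 19 receptors Sstr3 (-0.78, adjusted p = 0.0435) and Vipr1 (-0.48, adjusted p = 0.0333) were lower by edgeR's test. None of these 3 was called without mice 1 to 4, and no gene of the list of other precursors was called in either fit.

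Ketamine was compared with wake over 4 and 9 mice. Penk was lower by -1.31 on the log2 scale (SE 0.40, 95% interval -2.14 to -0.475, adjusted p = 0.0395, edgeR), and it was the only precursor of 10 to pass, where 12.4% of 20540 genes passed and 6.47% were lower. The call was lost without mice 1 to 4 (-1.11, adjusted p = 0.0834) and when mouse 1, 2, 10, 12, 25, 26, 27 or 28 was left out, and the adjusted p over the 20 such fits ran from 0.0263 to 0.173. Ketamine mice spanned 1.73 to 2.98 CPM of Penk and wake mice 2.52 to 9.92, so the ranges overlap. Fibroblast-like nuclei, in which Penk was at 19.8 CPM, were 4.38% to 14.3% of nuclei in ketamine mice against 0.165% to 5.78% in wake mice, and their part in the result was not tested. No ketamine mouse is among mice 1 to 4, and the batches of tissue processing are not in the labels.

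Tac1 was at 11.5, 0.70, 4.45, 6.22, 1.37 and 1.70 CPM in WT wake mice and at 8.63, 3.11 and 5.86 in APP/PS1 wake mice, against 0.974 and 2.21 (WT) and 1.12 and 1.21 (APP/PS1) under ketamine. The difference was -1.85 (SE 0.72, adjusted p = 0.0941, edgeR). The Zfhx3 cluster, a source of Tac1, was 0.211% to 1.72% of nuclei in ketamine mice and 0.118% to 4.61% in wake mice, with mouse 14 (3.54%) and mouse 17 (4.61%) highest, and its part in the difference was not tested. Adcyap1 was at 3.03, 0.35, 2.08, 1.84, 1.23 and 0.815 CPM in WT wake mice and at 3.08, 2.24 and 0.606 in APP/PS1 wake mice, against 0.541, 1.06, 0.480 and 0.231 under ketamine, on 4 to 60 UMIs per mouse over all mice. The difference was -1.69 (SE 0.58, adjusted p = 0.0626, edgeR). For Tac1 the ketamine mice lay in the lower part of the wake range, and for Adcyap1 1 ketamine mouse, at 0.231 CPM, lay below every wake mouse. DESeq2 called both. Npy differed by -2.08 (SE 0.98, adjusted p = 0.165), Sst by -2.12 (SE 1.10), Cck by -1.39 (SE 0.68), Vip by -0.94 (SE 0.72), Tac2 by -1.45 (SE 0.98), Crh by -1.43 (SE 0.85) and Pdyn by -0.32 (SE 0.37). At an unadjusted p of 0.05, 4 of 10 passed, against 29.5% of all genes.

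These estimates lean on mice 1 to 4, which lie in wake and isoflurane groups only. The median of the 10 precursors was -1.44 with them, against -0.0447 for all genes, and -0.54 without them, against -0.0169. Without them Npy differed by -0.80, Sst by -0.56, Cck by -0.52, Vip by 0.075, Tac1 by -1.41 and Adcyap1 by -1.34, and none of the 10 was called.

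**Figure D5:**
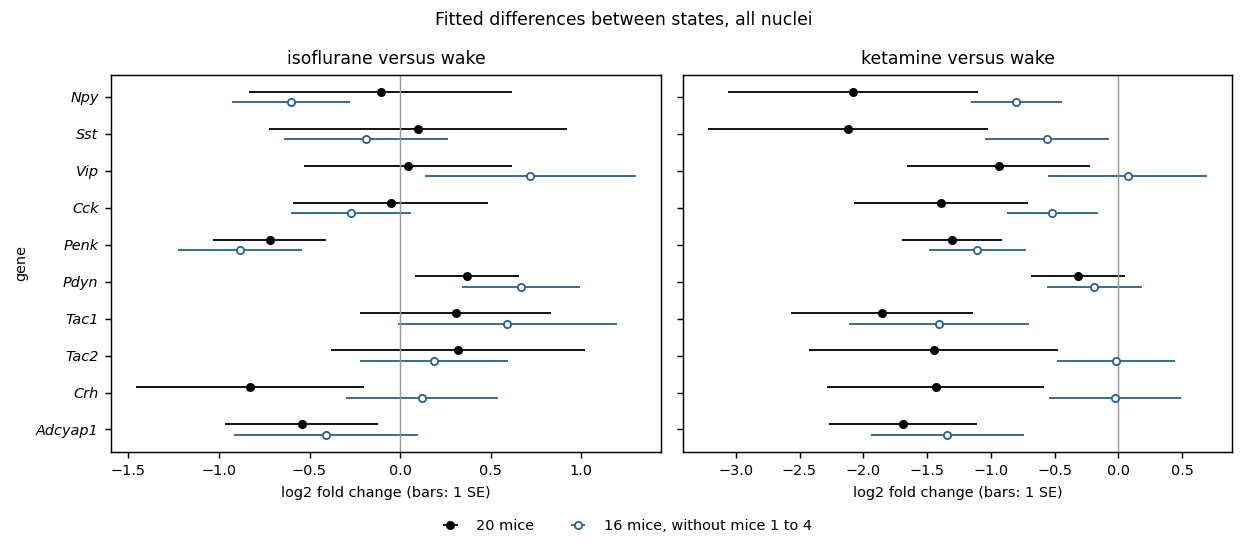
Log2 difference of each precursor between states in the sum of all nuclei (points) with 1 standard error to each side (bars), for isoflurane against wake and ketamine against wake, with all 20 mice (filled) and without mice 1 to 4 (open). The isoflurane estimates lie on both sides of 0; for ketamine all 10 lie below 0 with 20 mice, and without mice 1 to 4 that of Vip is at 0.075 and that of Penk at -1.11.

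Other genes of the peptide pathway were read against the same background, 6.47% of genes lower under ketamine, and no difference between gene groups was tested. The Npy receptors Npy1r (-1.19, SE 0.20, adjusted p = 0.00202), Npy2r (-1.44, SE 0.34, adjusted p = 0.0128) and Npy5r (-0.70, adjusted p = 0.0142) and the somatostatin receptor Sstr3 (-1.37, adjusted p = 0.00659) were lower by edgeR's test, 4 of 19 receptors, with none higher. Without mice 1 to 4, Npy1r (-1.14, adjusted p = 0.00769), Npy2r (-1.58, adjusted p = 0.0134) and Sstr3 (-1.36, adjusted p = 0.0204) were called. Of 14 processing genes 5 were lower, among them Pcsk1 (-1.64, adjusted p = 0.00323) and Cpe (-0.70, adjusted p = 0.00176), and both were also called without mice 1 to 4 (-1.63 and -0.64). Of 14 genes of the list of other precursors, Pnoc (-2.14) and Rln1 (-2.94) were lower. Neither was called without those mice (-1.45, adjusted p = 0.0615, and -2.74, adjusted p = 0.0634, edgeR). Among activity-regulated genes 8 of 16 were lower, with Npas4 at -3.18, Egr4 at -2.93, Arc at -2.79 and Bdnf at -0.90. The make-up of the summed nuclei differed as well. Granule-like nuclei had a median share of 17.9% in ketamine mice and 24.8% in wake mice, and fibroblast-like nuclei 8.67% and 2.23%. The part of this make-up, or of tissue batches, in the receptor and processing results was not tested.

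Ketamine against isoflurane called none of the 10 precursors, where 8.77% of 20540 genes were called, and 1 passed an unadjusted p of 0.05 against 26.1% of genes. That gene was Tac1, lower under ketamine by -2.16 (adjusted p = 0.0718, edgeR), with isoflurane mice from 0.741 to 20.6 CPM and ketamine mice from 0.974 to 2.21, and DESeq2 called it. The 20.6 CPM is that of mouse 16, in which the Zfhx3 cluster was 17.7% of nuclei, and the part of that cluster in this comparison was not tested. Both comparisons with ketamine share the same 4 mice. Of the receptors, Npy1r and Npy2r were lower under ketamine here too, and both calls held without mice 1 to 4. Of the other precursors Rln1 was lower (-4.16, adjusted p = 0.00929, edgeR), also without those mice (-3.60, adjusted p = 0.0263), and Pomc was called higher only without them (2.84, adjusted p = 0.0201; 1.71, adjusted p = 0.0971, with all mice).

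Between the genotypes as labelled, no precursor was called and edgeR's test called 0 of 20540 genes (0%), with 351 genes (1.71%) at an unadjusted p of 0.05 and 0 called by DESeq2. Estimates for the precursors lay between -0.53 and 0.33 on the log2 scale, and that of Penk was 0.13 (95% interval -0.49 to 0.75). The interaction of isoflurane with genotype called 0 genes and 0 precursors, with 652 genes (3.17%) at an unadjusted p of 0.05 and 1 gene called by DESeq2. No gene of the receptor, processing, other precursor or activity lists was called between genotypes.

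Within Gad-positive nuclei 7 precursors could be tested and none was called in any comparison, where 1.27% of 11409 genes were called for isoflurane against wake, 1.5% for ketamine against wake, 0.14% for ketamine against isoflurane, and 0% for genotype and interaction. Tac1 came nearest, with -2.35 for ketamine against wake (adjusted p = 0.164) and -2.58 for ketamine against isoflurane (adjusted p = 0.180, edgeR), 2 comparisons that share the ketamine mice. Npy differed by -2.19 between ketamine and wake (adjusted p = 0.262, edgeR). Gad-negative nuclei gave no call either, against 5.69%, 11.7%, 9.22%, 0% and 0% of 20154 genes. Penk (-1.17, adjusted p = 0.0631) and Adcyap1 (-1.69, adjusted p = 0.0701) came nearest there, again for ketamine against wake by edgeR's test. Some other settings gave calls in both kinds of nuclei, and these are listed further on.

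In granule-like nuclei no precursor was called for isoflurane (2.64% of 15138 genes called) or ketamine (12.4%) against wake. Penk there was at 1.94 to 10.0 CPM in wake mice (median 3.31), 1.11 to 4.07 in isoflurane mice (median 2.23) and 0.485 to 3.76 in ketamine mice (median 2.07). It differed by -1.08 under isoflurane (SE 0.34, adjusted p = 0.102) and by -1.21 under ketamine (adjusted p = 0.0957, edgeR). With mice 1 to 4 as a block, Penk was called for isoflurane (-1.09, SE 0.30, adjusted p = 0.0473, edgeR) and not for ketamine (-0.99, adjusted p = 0.137, edgeR). Pdyn, the granule cell precursor, was at 1.28 to 4.43 CPM in wake mice, 2.71 to 9.04 in isoflurane mice and 0.752 to 5.21 in ketamine mice, with overlapping ranges. In CA1-like nuclei, where 5.63% and 9.62% of 13925 genes were called, Cck was at 47.4 to 298 CPM in wake mice (median 120), 42.5 to 310 in isoflurane mice (median 92.4) and 43.4 to 79.1 in ketamine mice (median 54.9). It differed by -1.16 under ketamine (adjusted p = 0.147), and Penk by -1.03 (adjusted p = 0.165, edgeR). In CA3-like nuclei, where 2.19% and 5.32% of 12997 genes were called, Cck differed by -1.56 under ketamine (adjusted p = 0.123, edgeR).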

How the data were processed

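Hippocampal nuclei were sequenced with 10x Genomics 3′ chemistry. The deposited matrices, made by the authors with Cell Ranger 5.0.0 on mm10, intronic reads included, hold whole-number UMI counts per gene and nucleus, 1 matrix per mouse, and all 20 were used. The matrix headers name Cell Ranger only; whether the further cleaning of the study's methods (CellBender for free RNA, DoubletFinder) had been applied to these counts was not tested. Groups followed the labels. The members, gene lists and tests were chosen with earlier results of these data known. All 10 members were described, and other genes were named only where called or where a result turned on them.

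Counts were summed per mouse over all nuclei, over nuclei with Gad1+Gad2 of 2 or more or of 0, and over classes. Classes came from Leiden clustering of all nuclei (resolution 1.0, 2000 variable genes, 30 principal components, 20 neighbours, with scikit-learn 1.9.0, leidenalg 0.10.2 and Python 3.11.15). The GABAergic-like nuclei were clustered again without marked doublets, which were also left out of the classes. Classes were named from fixed markers, and a class needed 50 nuclei in a mouse to enter a test. Sums were tested with the quasi-likelihood test of edgeR 4.0.16 in R 4.3.3 (genes kept by filterByExpr, TMM factors) with 6 group means over the 20 mice, and with the mouse as a block for the Gad contrast, with Benjamini-Hochberg adjustment over all genes tested at 0.05. DESeq2 1.42.0, RLE size factors, no gene filter, Gad1+Gad2 of 4 or more, marked doublets removed, runs of mouse numbers as a block and leaving out mice were alternatives. The scripts were tested on simulated data. CPM is per 1000000 UMIs of the nuclei summed; intervals on shares are exact binomial at 95% and cover counting error only. The depth per mouse was 9243992 to 25394891 UMIs. Promoter letters came from RefSeq.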

Additional observations from a re-analysis of the deposited data

Results flagged for a closer look

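Single mice were set against their own group for each precursor in each of the 3 sums, in the groups of 4 and 6 mice. In 20 of 60 such groups the gap between the highest mouse and the next, divided by the range of the group, passed Dixon's 95% critical value, where chance gives about 1 in 20 of separate groups; the sum of all nuclei holds the others, so these are not separate. In 14 of them the mouse was WT wake mouse 1 and in 6 it was APP/PS1 isoflurane mouse 4. Mice 2 and 3 belong to groups of 3 and were not tested. Mice 1 to 4 were already known from the same counts to stand apart, so these flags add no separate evidence. In all nuclei these values were, for Npy, 38.5 CPM in mouse 1 (others 2.13 to 8.31) and 36.7 CPM in mouse 4 (others 2.34 to 4.94), and for Sst 126 CPM in mouse 1 and 109.8 CPM in mouse 4. Tac2 was at 4.50 CPM in mouse 1 and 4.32 CPM in mouse 4, and Crh at 2.68 CPM in mouse 1.

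In nuclei with 2 or more Gad UMIs, mouse 1 stood apart with 196 CPM of Npy (others 13.7 to 51.2), 527 CPM of Sst (others 16.5 to 96.7), 246 CPM of Cck (others 13.6 to 67.2) and 20.3 CPM of Tac2. Pdyn and Adcyap1 were each at 0.751 CPM there, which is 1 UMI against none in the other 5 WT wake mice and says little. In nuclei with no Gad UMI, Npy was at 24.3 CPM in mouse 1 and 27.7 CPM in mouse 4, Sst at 82.4 CPM and 92.3 CPM, and Cck at 244.7 CPM in mouse 4 (others 40.7 to 73.6). Tac2 was at 2.84 CPM and Crh at 1.36 CPM in mouse 1 in these nuclei. Npy, Sst and Tac2 of mouse 1 thus passed in both kinds of nuclei, and mouse 4 passed in none of the Gad-positive sums. A cause was not tested.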

How the results depend on the processing

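The number of precursors called was recomputed for 22 comparisons under 609 alternatives: it was equal in 567, higher in 17 and lower in 25, and 10 comparisons had the equal number under every alternative run. In all nuclei, ketamine against wake called 3 with DESeq2 (Penk, Tac1, Adcyap1; 1629 higher and 1786 lower of 23311 genes), 0 without mice 1 to 4, 0 with runs of mouse numbers as a block (which leaves ketamine compared only with WT wake mouse 29), and 0 to 2 with 1 mouse left out. Ketamine against isoflurane called 1 with DESeq2 (Tac1; 1218 higher and 1434 lower of 22187 genes) and 0 to 1 with 1 mouse left out. In Gad-positive nuclei without a filter on low counts, 4 were called for ketamine against wake (Npy, Sst, Cck, Tac1), 5 for ketamine against isoflurane (those and Vip) and 1 for the interaction (Sst); of 24802 genes that fit called 233 higher and 463 lower, 153 and 377, and 28 and 35. In Gad-negative nuclei, 1 was called for isoflurane with number runs as a block (Tac2; 1102 higher and 781 lower of 20966 genes), 2 for ketamine against wake with DESeq2 (Penk, Adcyap1; 1557 higher and 1727 lower of 22113 genes), 0 to 2 with 1 mouse left out, and 1 for ketamine against isoflurane with DESeq2 (Tac1; 1200 higher and 1377 lower of 20994 genes). In granule-like nuclei, 1 was called for isoflurane with mice 1 to 4 as a block (Penk; 332 higher and 368 lower of 15138 genes) and 0 to 1 for ketamine with 1 mouse left out, and in CA3-like nuclei 1 for ketamine without the filter (Cck; 253 higher and 453 lower of 25625 genes). The Gad contrast called 5 to 7 with 1 mouse left out, and Tac2 was tested in only 7 of those 20 fits. The cause of these changes was not tested.

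Directions turned for isoflurane against wake in Sst (-0.19 without mice 1 to 4, -0.14 with them as a block), Vip (-0.18 with number runs as a block) and Crh (0.12 without mice 1 to 4), and with 1 mouse left out in Npy (-1.06 to 0.60), Sst (-0.87 to 0.93), Vip (-0.18 to 0.81), Cck (-0.72 to 0.54), Tac1 (-0.076 to 0.57) and Tac2 (-0.70 to 1.19). For ketamine against wake they turned in Vip without mice 1 to 4 (0.075) and with number runs as a block in Npy (0.026), Sst (0.57), Vip (0.83), Cck (0.27), Pdyn (0.57) and Crh (1.64). Among all genes, isoflurane against wake called 823 higher and 465 lower, against 124 and 75 without mice 1 to 4, 1112 and 865 with those mice as a block, 1171 and 882 with number runs as a block and 1170 and 771 with DESeq2. Ketamine against wake called 1216 higher and 1329 lower, against 807 and 825 without mice 1 to 4 and 0 and 1 with number runs as a block. Mice 1 to 4 as a block, GABAergic-like clusters in place of the Gad rule, and Gad-negative nuclei with a Slc17a7 UMI in the Gad contrast were chosen after seeing the data. No mice could be paired by replicate number, since each mouse number occurs once in the labels. By the methods, a batch of tissue held 4 mice drawn from each experimental group, as mice 1 to 4 are, and the labels do not say which mice shared one. Blocked fits were therefore run with mice 1 to 4, or with number runs, as the block. Depth limits Tac2, Crh, Pdyn and Adcyap1 most, with as few as 3, 1, 5 and 4 UMIs in a mouse.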

Other observations

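In mice 1 to 4 a small cluster of 164 nuclei led by Tpm2, Fn1, Dnase1l3 and Fos, with a median depth of 708.5 UMIs, had 1410 CPM of Npy, 2141 CPM of Sst and 1024 CPM of Cck, and its highest nucleus had 45 Npy UMIs. In the other 16 mice the same cluster held 845 nuclei, 770 of them from mouse 25, at 29.0, 81.2 and 569 CPM. In an astrocyte-like cluster of mice 1 to 4 with 218 CPM of Vip, 1 nucleus gave 104 of the 116 Vip UMIs, and single nuclei likewise gave 22 of 26 Tac2 UMIs, 19 of 20 Crh UMIs and 17 of 18 Penk UMIs, so those levels rest on a single nucleus or very few. Of the Gad-positive nuclei 74.0% lay in GABAergic-like clusters, and of the Vip UMIs of the 16 mice 70.5% did, both with marked doublets included.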
